A study of Mus musculus with 23 samples.

Results

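The synaptic vesicle release machinery was represented by 10 genes, chosen by name, out of 38924 gene IDs in every table: the synaptotagmin genes Syt1, Syt2 and Syt4, the SNARE genes Snap25, Vamp1 and Vamp2, the vesicle glycoprotein genes Sv2b and Sv2c, the priming factor gene Unc13a, and Agrn, whose product is a secreted signal. Each of the 10 names matched 1 gene ID, and all 10 passed the filter on low counts in every comparison. The data were RNA-seq of spinal cord at 2 weeks of age, after ribosomes had been precipitated through a haemagglutinin tag on the ribosomal protein Rpl22 (RiboTag). Cre recombinase switches the tagged Rpl22 on. Under ChAT-Cre this happens in every kind of cholinergic cell, motor neurons and cholinergic interneurons alike. The mutant allele is GarsC201R, a change in the glycyl-tRNA synthetase gene that is carried with a wild-type copy and is used as a model of dominant motor neuropathy, here before disease onset. The 23 libraries fell into 4 groups: 6 mutant Cre (Rpl+/-;Chat+/-;C201R+/-), 5 wild-type Cre (Rpl+/-;Chat+/-;C201R+/+), 6 mutant no-Cre (Rpl+/-;Chat+/+;C201R+/-) and 6 wild-type no-Cre (Rpl+/-;Chat+/+;C201R+/+). All groups carried 1 copy of the tagged allele on the same strain background (B6.CgxB6.129). No-Cre precipitates come from cords with no cell in which the tag was switched on, so they measure the RNA that came down without it.

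A nerve terminal releases transmitter when calcium enters and a docked vesicle fuses with the cell membrane. Synaptobrevins (the Vamp genes) on the vesicle zip together with Snap25 and syntaxin on the cell membrane, Munc13 (Unc13a) prepares this SNARE complex, and synaptotagmins such as Syt1 and Syt2 sense the calcium. SV2 proteins sit in the vesicle membrane, and agrin is the signal by which a motor terminal clusters acetylcholine receptors on muscle. Motor terminals at the neuromuscular junction are known for using Vamp1 and Syt2, while many forebrain synapses use Vamp2 and Syt1.

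The libraries held expected counts of 11696397 to 14511394 in mutant Cre, 9031654 to 13636772 in wild-type Cre, 12042625 to 19671869 in mutant no-Cre and 12538407 to 18806506 in wild-type no-Cre libraries. Ribosomal RNA-like genes took most of these, and the counts left without them were 2927104 to 6237428, 1213587 to 4466014, 594383 to 4886780 and 2170423 to 5582508 in the same groups. Summed over the markers of motor neurons and cholinergic cells, the level was 196 to 708 counts-per-million (CPM) in mutant Cre and between 612 and 881 CPM in wild-type Cre libraries. It was 21.2 to 31.4 and 23.9 to 80.9 CPM in mutant and wild-type no-Cre libraries. Of 11 matched markers of that list, 9 were tested in mutants and 10 in wild type. All of these were called higher with Cre, beside 14.1% and 20% of all genes. Only 6 passed the filter on low counts in the comparison without Cre. Markers that passed it through the Cre libraries alone could hardly be called otherwise, so these counts are given as description. Chat, which makes acetylcholine, lay between 13.7 and 57.0 CPM in mutant Cre and between 42.6 and 68.8 CPM in wild-type Cre libraries, and at or under 6.89 CPM in every no-Cre library. The Gars count pools the mutant and wild-type copies, so it does not check the genotype label. A pair of mutant Cre libraries stood apart, replicates 4 and 6, whose titles begin with 18405. Their motor neuron marker sums were 323 and 196 CPM, against 619 to 708 CPM in the other 4 mutant Cre libraries, and their oligodendrocyte marker sums were 5386 and 6989 CPM, against 905 to 2440 CPM in those 4. Leaving out title number 18405 removes both of them and 1 mutant no-Cre library, and values without it are given beside the 10 genes' results in mutants. Within bulk tissue, fewer cells of a type and less RNA per cell cannot be told apart.

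The 10 genes together held 0.754 to 1.35% of the counts left without ribosomal RNA-like genes in mutant Cre and 0.679 to 1.39% in wild-type Cre libraries, against 0.188 to 0.422% in mutant no-Cre and 0.155 to 0.418% in wild-type no-Cre libraries. This share mainly follows Snap25, which had 220535 counts over the mutant Cre libraries, with 62762 for Vamp1 and 18197 for Vamp2, the next. Levels of the 10 genes relative to each other can be compared only per length, as counts per effective length scaled to the same total over all genes but the ribosomal RNA-like ones. On that scale Snap25 was first in every library, with a median of 9982 in mutant Cre, 8347 in wild-type Cre, 1837 in mutant no-Cre and 2243 in wild-type no-Cre libraries. Vamp1 was second in every Cre library, with medians of 1353 in mutant Cre and 1048 in wild-type Cre libraries. In no-Cre libraries Vamp2 and Vamp1 could not be put in order, since Vamp2 was the higher of the pair in only 4 of 6 libraries of either genotype. Below them the order in mutant Cre libraries was Vamp2 (median 457), Sv2c (227), Syt2 (131), Syt4 (114), Syt1 (58.3), Sv2b (53.1), Agrn (46.1) and Unc13a (37.8). The steps down to Sv2c separated all 6 libraries without overlap, while the ranges of all lower neighbours overlapped. In wild-type Cre libraries Sv2c (269) and Vamp2 (255) were not ordered, with Sv2c the higher in 3 of 5 libraries.

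**Figure D1:**
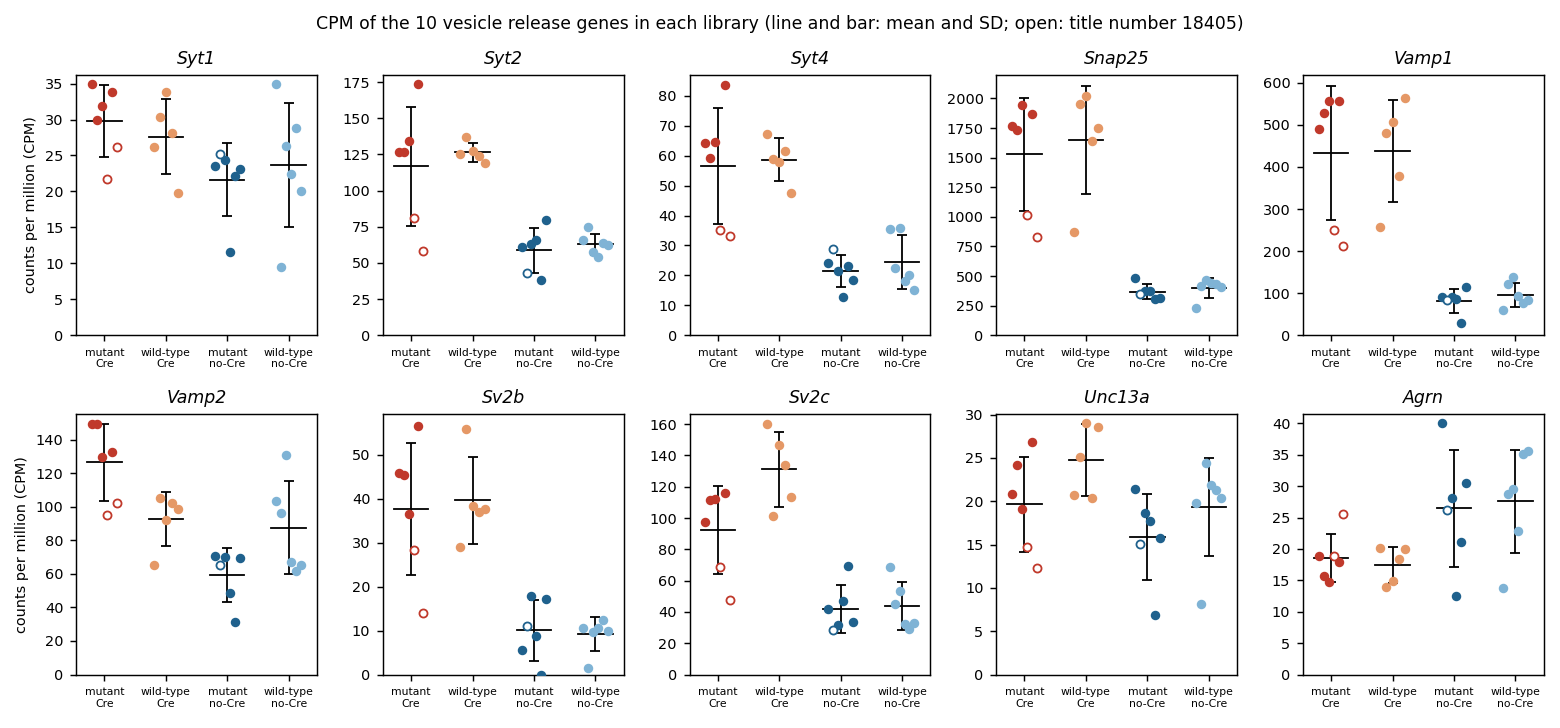
Level of each of the 10 genes in CPM (vertical axis, from 0) in every library of the 4 groups (horizontal axis). Points are libraries, lines and bars the mean and SD, and open points the libraries whose title begins with 18405. Within each genotype every Cre library stands above every no-Cre library for Snap25, Vamp1 and Syt4. So it does for Vamp2 in mutants and for Sv2b, Sv2c and Syt2 in wild type. The share of all genes with ranges apart in this way is not given here, so the separation is description.

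The comparison of Cre with no-Cre precipitates asks which of these RNAs came down with tagged ribosomes above the background measured in separate cords without Cre. Vamp1, Snap25, Sv2b, Syt4 and Sv2c rose with Cre in both genotypes, Vamp2 rose in mutants, and Agrn fell in both. Syt2 rose in wild type, and in mutants its adjusted p lay at the threshold. Syt1 and Unc13a were called in neither. In mutants 7 of the 10 genes were called (6 higher and 1 lower) by edgeR's quasi-likelihood test at a Benjamini-Hochberg adjusted p under 0.05, beside 33.3% of the 12741 genes tested (14.1% higher and 19.2% lower). In wild type 7 were called (6 higher and 1 lower), beside 46% of 12485 genes (20% higher and 25.9% lower). The median log2 fold change of the 10 was 0.79 in mutants and 1.05 in wild type, beside -0.14 over all genes in each. The comparisons of the 2 genotypes share no library. CPM values are scaled over all 23 libraries and fold changes within the groups compared, so the CPM shown need not give the fold change stated. In mutants, for example, Unc13a averaged 19.6 CPM with Cre and 15.9 CPM without it, at a log2 fold change of -0.021. Scaled by library totals alone, the median over all genes moved to 1.13 in mutants, with 3248 genes called higher and 275 lower (1800 and 2447 with TMM), and 7 of the 10 higher and 0 lower. With RLE factors, without the ribosomal RNA-like genes, by DESeq2, or without title number 18405, 8 of the 10 were called in mutants (7 higher and 1 lower). In wild type library totals left 906 genes called, of the 10 only Snap25 and Vamp1.

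**Figure D2:**
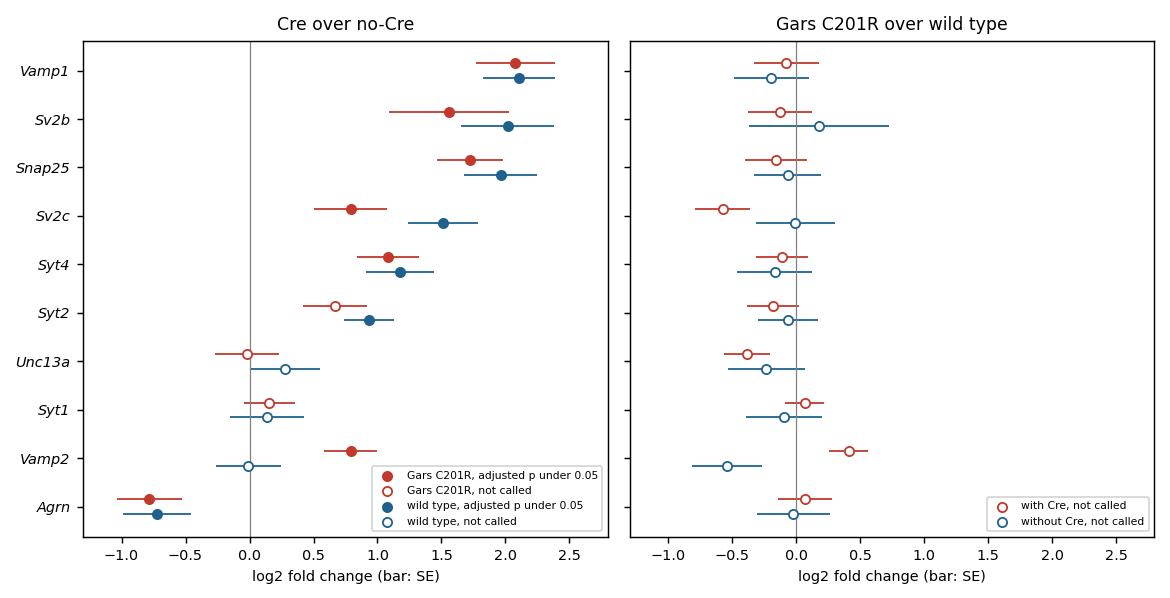
Log2 fold change (horizontal axis) with its standard error for each of the 10 genes (rows), Cre over no-Cre on the left and Gars C201R over wild type on the right. Filled points passed an adjusted p under 0.05 in edgeR's quasi-likelihood test; the left panel runs from Agrn, at -0.78 in mutants and -0.72 in wild type, up to Vamp1, at 2.08 and 2.11, and no point is filled on the right.

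Among the SNARE genes, Vamp1 (ENSMUSG00000030337, chr6:125215551-125245964, plus strand, GENCODE M21 on GRCm38) encodes synaptobrevin 1, the vesicle SNARE of motor terminals. It had a lowest, median and highest level of 212, 510 and 558 CPM in mutant Cre and 28.1, 88.3 and 114 CPM in mutant no-Cre libraries. In wild type it had 257, 481, 507, 379 and 565 CPM in the 5 Cre libraries, against 60.9, 88.8 and 139 CPM as the lowest, median and highest of the no-Cre libraries. The lowest Cre library of each genotype was above every no-Cre library. The log2 fold change was 2.08 (SE 0.31, edgeR adjusted p = 0.000126) in mutants and 2.11 (SE 0.28, edgeR adjusted p = 2.82e-05) in wild type. The change in mutants was 2.48 without title number 18405.

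Snap25 (ENSMUSG00000027273, chr2:136713453-136782428, plus strand) encodes the SNARE of the presynaptic membrane that contributes a pair of helices to the complex. It had 828, 1750 and 1942 CPM as the lowest, median and highest of the mutant Cre libraries, against 309, 359 and 486 CPM in mutant no-Cre libraries. The wild-type Cre libraries had 874, 1951, 2024, 1640 and 1754 CPM, against 230, 423 and 466 CPM in wild-type no-Cre libraries. The groups did not overlap in either genotype, and the 3 lowest Cre libraries were the pair of title number 18405 and replicate 1 of wild-type Cre. That replicate had 89.0% of its counts in ribosomal RNA-like genes. Snap25 rose by 1.72 (SE 0.26, edgeR adjusted p = 0.000136) in mutants and by 1.96 (SE 0.28, edgeR adjusted p = 5.72e-05) in wild type. It rose by 2.06 in mutants without title number 18405.

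Vamp2 (ENSMUSG00000020894, chr11:69088490-69092384, plus strand) encodes synaptobrevin 2, the vesicle SNARE of most central synapses. It had 95.0, 131 and 149 CPM as the lowest, median and highest of the mutant Cre libraries, against 31.5, 67.6 and 70.9 CPM in mutant no-Cre libraries. The wild-type Cre libraries had 65.2, 105, 92.0, 102 and 98.4 CPM, against 61.7, 81.7 and 131 CPM in wild-type no-Cre libraries. Mutant Cre and mutant no-Cre libraries were apart, while the wild-type groups lay within the same span. Vamp2 rose by 0.79 (SE 0.21, edgeR adjusted p = 0.00802) in mutants, or by 1.05 without title number 18405, and stood at -0.0099 (SE 0.25, edgeR adjusted p = 0.978) in wild type. The test of the difference between these Cre effects, which is also the difference between the genotype effects with and without Cre, gave 0.95 on the log2 scale (SE 0.33, unadjusted p = 0.00793, edgeR adjusted p = 0.354), so the 2 genotypes were not shown to differ.

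The SV2 genes encode transporter-like glycoproteins of the vesicle that are also the receptors through which botulinum toxin A enters terminals. Sv2b (ENSMUSG00000053025, chr7:75114894-75309262, minus strand) had 14.0, 40.9 and 56.5 CPM as the lowest, median and highest of the mutant Cre libraries, against 0, 9.82 and 18.0 CPM in mutant no-Cre libraries. It had 29.1, 55.9, 38.5, 37.0 and 37.6 CPM in wild-type Cre libraries, against 1.48, 10.3 and 12.5 CPM in wild-type no-Cre libraries. The 14.0 CPM library was mutant Cre replicate 6, of title number 18405, and was the single Cre library inside the no-Cre range. Sv2b rose by 1.56 (SE 0.47, edgeR adjusted p = 0.0177) in mutants and by 2.02 (SE 0.36, edgeR adjusted p = 0.000338) in wild type. Without title number 18405 it rose by 1.94 in mutants (edgeR adjusted p = 0.0108).

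Sv2c (ENSMUSG00000051111, chr13:95954594-96132577, minus strand) had 47.7, 105 and 116 CPM as the lowest, median and highest of the mutant Cre libraries, against 28.2, 37.7 and 69.4 CPM in mutant no-Cre libraries. It had 160, 101, 147, 134 and 114 CPM in wild-type Cre libraries, against 29.2, 39.2 and 69.0 CPM in wild-type no-Cre libraries. In mutants the libraries of title number 18405 reached down into the no-Cre range, and in wild type the groups were apart. Sv2c rose by 0.79 (SE 0.28, edgeR adjusted p = 0.0425) in mutants and by 1.51 (SE 0.27, edgeR adjusted p = 0.000351) in wild type. The call in mutants rests on single libraries: it was lost in 7 of the 12 fits that left out 1 library, with changes between 0.69 and 1.21 over the 12. Without title number 18405 the change was 1.04 (edgeR adjusted p = 0.0116).

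The stretch of 250 bases before the RefSeq start is shown for Vamp1, Sv2b and Sv2c as examples of members that rose with Cre in both genotypes. The sequences are RefSeq's on GRCm38.p6, read in the direction of the gene at chr6:125215331-125215580, chr7:75309263-75309512 and chr13:96132578-96132827, and the capitals mark matches on either strand to GGGCGG (the GC box) or TATAAA (the TATA box).
Vamp1: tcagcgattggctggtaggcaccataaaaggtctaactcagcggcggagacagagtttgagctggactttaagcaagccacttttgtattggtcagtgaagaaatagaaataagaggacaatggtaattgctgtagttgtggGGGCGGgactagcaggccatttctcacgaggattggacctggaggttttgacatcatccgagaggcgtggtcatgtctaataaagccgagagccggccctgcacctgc
Sv2b: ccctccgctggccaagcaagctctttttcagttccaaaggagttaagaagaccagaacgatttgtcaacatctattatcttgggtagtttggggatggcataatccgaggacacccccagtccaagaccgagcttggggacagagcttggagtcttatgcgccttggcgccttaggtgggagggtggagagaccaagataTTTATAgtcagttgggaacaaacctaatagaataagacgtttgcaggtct
Sv2c: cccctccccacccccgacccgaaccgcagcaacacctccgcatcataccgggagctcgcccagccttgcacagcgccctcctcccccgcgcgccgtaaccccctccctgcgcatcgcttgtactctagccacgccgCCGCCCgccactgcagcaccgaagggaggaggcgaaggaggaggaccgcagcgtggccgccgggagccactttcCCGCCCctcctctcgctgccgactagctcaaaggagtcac
Vamp1 held 1 GC box match, Sv2c held 2, and Sv2b held 1 TATA box match. No window of these 3 held TGACGTCA (the cyclic AMP response element) or CAGCTG (an E-box). Over 32851 RefSeq windows of the same length, 32.7% held a GC box match, 12.4% a TATA box match, 1.55% a cyclic AMP response element and 13.0% the E-box. These 6- and 8-base searches did not overlap each other in the 3 windows, and the matches describe the letters alone.

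Synaptotagmins include the calcium sensors of release. Syt2 (ENSMUSG00000026452, chr1:134646677-134762593, plus strand), the fast sensor of motor terminals and of many hindbrain and spinal synapses, had 58.2, 127 and 173 CPM as the lowest, median and highest of the mutant Cre libraries, against 38.4, 62.2 and 79.8 CPM in mutant no-Cre libraries. It had 125, 137, 127, 124 and 119 CPM in wild-type Cre libraries, against 53.9, 63.0 and 74.8 CPM in wild-type no-Cre libraries. The 5 wild-type Cre libraries lay close together and above all no-Cre libraries, whereas mutant Cre replicate 6 fell inside the no-Cre range. Syt2 rose by 0.93 (SE 0.19, edgeR adjusted p = 0.001) in wild type. In mutants the value was 0.67 (SE 0.25, edgeR adjusted p = 0.0502), which missed the threshold, and without title number 18405 it was 0.95 (edgeR adjusted p = 0.00706). The call in mutants was made in 6 of the 12 fits that left out 1 library, and under each other scaling, filter or tool run, with edgeR adjusted p of 0.0312 with RLE factors, 0.0164 by library totals, 0.0266 without ribosomal RNA-like genes and 0.0293 with no filter, and a DESeq2 adjusted p of 0.0116. The difference between the Cre effects was -0.12 (SE 0.32, edgeR adjusted p = 0.915).

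Syt4 (ENSMUSG00000024261), a synaptotagmin whose first calcium-binding domain does not bind calcium and which is found on dense-core and other transport vesicles, had 33.0, 61.7 and 83.6 CPM as the lowest, median and highest of the mutant Cre libraries, against 12.9, 22.2 and 29.0 CPM in mutant no-Cre libraries. It had 67.2, 59.0, 58.1, 61.5 and 47.4 CPM in wild-type Cre libraries, against 15.0, 21.4 and 35.9 CPM in wild-type no-Cre libraries. The groups did not overlap in either genotype. Syt4 rose by 1.08 (SE 0.24, edgeR adjusted p = 0.00312) in mutants and by 1.18 (SE 0.27, edgeR adjusted p = 0.00216) in wild type. In mutants it rose by 1.54 without title number 18405.

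Syt1 (ENSMUSG00000035864, chr10:108497650-109010982, minus strand), the fast calcium sensor of forebrain synapses, had 21.8, 30.9 and 35.0 CPM as the lowest, median and highest of the mutant Cre libraries, against 11.6, 23.3 and 25.2 CPM in mutant no-Cre libraries. It had 26.1, 30.3, 33.9, 28.1 and 19.8 CPM in wild-type Cre libraries, against 9.52, 24.4 and 35.0 CPM in wild-type no-Cre libraries. Cre and no-Cre libraries overlapped in both genotypes. The log2 fold change was 0.16 (SE 0.20, edgeR adjusted p = 0.582) in mutants and 0.14 (SE 0.29, edgeR adjusted p = 0.717) in wild type. Without title number 18405 it was 0.41 in mutants (edgeR adjusted p = 0.212).

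Unc13a (ENSMUSG00000034799, chr8:71624417-71671757, minus strand) encodes Munc13-1, the priming factor that opens syntaxin so that the SNARE complex can form. It had 12.3, 20.0 and 26.8 CPM as the lowest, median and highest of the mutant Cre libraries, against 6.89, 16.7 and 21.4 CPM in mutant no-Cre libraries. It had 20.7, 25.1, 29.0, 20.3 and 28.6 CPM in wild-type Cre libraries, against 8.18, 20.8 and 24.5 CPM in wild-type no-Cre libraries. The groups overlapped, with log2 fold changes of -0.021 (SE 0.25, edgeR adjusted p = 0.958) in mutants and 0.28 (SE 0.27, edgeR adjusted p = 0.419) in wild type. The sign in mutants is not fixed, since 6 of the 12 fits that left out 1 library gave a positive value, and so did leaving out title number 18405 (0.25, edgeR adjusted p = 0.528).

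Agrn (ENSMUSG00000041936, chr4:156165290-156197488, minus strand) encodes agrin, which motor neurons secrete at the junction and which glia, vessels and muscle also make, in forms that a count per gene does not separate. It had 14.7, 18.4 and 25.6 CPM as the lowest, median and highest of the mutant Cre libraries, against 12.5, 27.2 and 40.1 CPM in mutant no-Cre libraries. It had 20.1, 14.0, 14.9, 18.4 and 19.9 CPM in wild-type Cre libraries, against 13.8, 29.2 and 35.6 CPM in wild-type no-Cre libraries. In each genotype 5 of 6 no-Cre libraries were above the median of the Cre libraries, and the ranges overlapped. Agrn fell by 0.78 (SE 0.25, edgeR adjusted p = 0.0259) in mutants and by 0.72 (SE 0.27, edgeR adjusted p = 0.0356) in wild type, and without title number 18405 by 0.88 in mutants (edgeR adjusted p = 0.0311), where its sign turned under scaling by library totals alone (0.42, edgeR adjusted p = 0.642). Leaving out 1 library ended the call in 7 of 12 fits in mutants (changes from -0.80 to -0.44) and in 7 of 11 in wild type (-0.88 to -0.61). In wild type a block for title number (-0.47, edgeR adjusted p = 0.263) and library totals alone (-0.95, edgeR adjusted p = 0.391) ended it too. With no filter it was lost in both genotypes, at -0.67 in mutants and -0.65 in wild type (edgeR adjusted p = 0.0645 and 0.108). Endothelial and pericyte markers, from cells that also make agrin, summed to 12.9 to 186 CPM in mutant Cre and between 4.59 and 60.0 CPM in wild-type Cre libraries, against 60.6 to 186 CPM in mutant no-Cre and 100.3 to 213 CPM in wild-type no-Cre libraries. In mutants 1 of 8 was called lower, beside 19.2% of all genes, and in wild type 8 of 8, beside 25.9%. Of these markers Cldn5, Pecam1, Cdh5 and Pdgfrb were each at 0 in 1 wild-type Cre library. Their part in the result was not tested.

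Other cells' markers moved with Cre alongside the 10 genes. Oligodendrocyte markers summed to 905 to 6989 CPM in mutant Cre and between 606 and 3328 CPM in wild-type Cre libraries, against 6843 to 14146 CPM in mutant no-Cre and 7175 to 12410 CPM in wild-type no-Cre libraries, with 3 of 8 called lower in mutants and 8 of 8 in wild type. Inhibitory interneuron markers, from neurons that also use Snap25, Syt2 and Vamp1, summed to 64.9 to 101 CPM in mutant Cre and between 38.5 and 113 CPM in wild-type Cre libraries, against 89.96 to 166 CPM in mutant no-Cre and 141 to 185 CPM in wild-type no-Cre libraries. Astrocyte markers summed to 294 to 788 CPM in mutant Cre and between 294 and 542 CPM in wild-type Cre libraries, against 710 to 1103 CPM and 838 to 1287 CPM in mutant and wild-type no-Cre libraries. Inhibitory interneuron markers were called lower for 1 of 6 in mutants and 4 of 6 in wild type. Astrocyte markers were called lower for 3 of 8 in mutants and 5 of 8 in wild type, with 1 more called higher there. Beside these calls stand 19.2% of all genes called lower in mutants and 25.9% in wild type. The 1 of 6 inhibitory markers in mutants lies near that share. No marker of these 3 lists was at 0 in any library, and their part in the members' levels was not tested. Of the motor neuron list itself, Lhx3 was at 0 in 6 of 6 mutant no-Cre and 4 of 6 wild-type no-Cre libraries.

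Paralogs within 1 library do not depend on the scaling between libraries, so their ratio was compared too. The log2 ratio of Vamp1 over Vamp2 per effective length averaged 1.34 ± 0.40 (SD, n = 6) in mutant Cre and -0.068 ± 0.34 (SD, n = 6) in mutant no-Cre libraries, a difference of 1.41. In wild type it averaged 1.67 ± 0.50 (SD, n = 5) in Cre and -0.27 ± 0.45 (SD, n = 6) in no-Cre libraries, a difference of 1.94. As a plain ratio, Vamp1 was 1.63 to 3.35 times Vamp2 in mutant Cre and 1.82 to 4.25 times in wild-type Cre libraries, against 0.679 to 1.26 times in mutant no-Cre and 0.447 to 1.02 times in wild-type no-Cre libraries. The groups were apart in both genotypes. Both differences had a two-sided exact permutation p of 0.00216, the smallest these group sizes allow (adjusted p = 0.013 over 12 ratio tests). In mutants the difference was 1.64 without title number 18405 (adjusted exact permutation p = 0.0476). With Cre, the mutant and wild-type ratios differed by -0.34, with an exact permutation p of 0.251 (adjusted p = 0.753).

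Reads of paralogs can be told apart only where their letters differ. Over 350 aligned coding bases the 2 genes were 76.3% identical, and the longest run of bases that any transcript of one shared with any of the other was 18. The most alike stretch of 90 coding bases is shown, positions 103 to 192 in Vamp1 and 97 to 186 in Vamp2 counted from the start codon of each gene's lowest-numbered complete transcript in GENCODE M21, with the 8 differing bases in capitals.
Vamp1: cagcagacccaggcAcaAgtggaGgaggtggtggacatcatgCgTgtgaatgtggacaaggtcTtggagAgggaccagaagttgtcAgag
Vamp2: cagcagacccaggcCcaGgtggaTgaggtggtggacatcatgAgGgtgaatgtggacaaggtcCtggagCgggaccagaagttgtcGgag
The other pairs had 75.8% identity and a longest shared run of 26 bases for Syt2 and Syt1, and 66.6% and 37 bases for Sv2c and Sv2b.

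**Figure D3:**
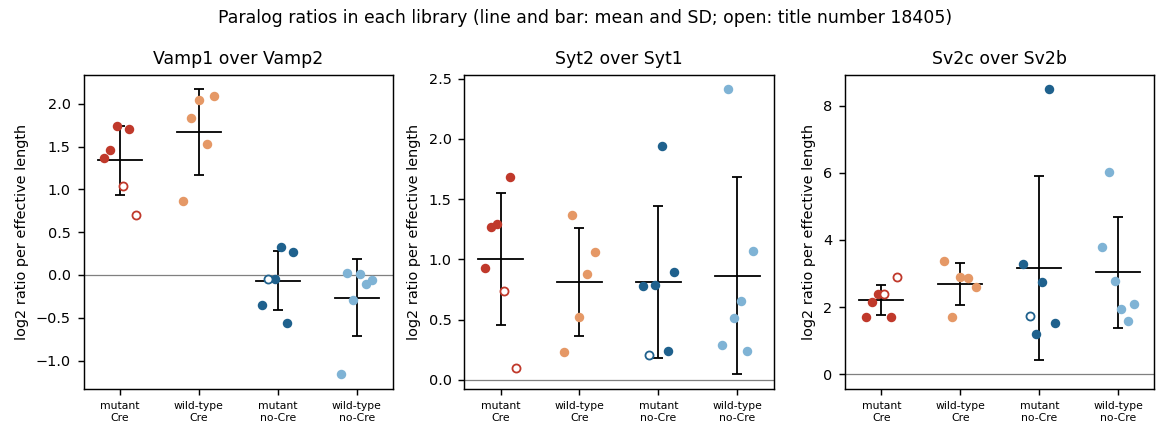
Log2 ratio per effective length of 3 paralog pairs (vertical axes, each with its own range) in every library of the 4 groups; lines and bars are the mean and SD, open points the libraries of title number 18405. The Vamp1 over Vamp2 ratio stands at 0.70 or above in all Cre libraries and at 0.33 or below in all no-Cre libraries, while the other 2 ratios overlap between all groups.

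Syt2 over Syt1 averaged 1.00 ± 0.55 (SD, n = 6) in mutant Cre, 0.81 ± 0.45 (n = 5) in wild-type Cre, 0.81 ± 0.63 (n = 6) in mutant no-Cre and 0.86 ± 0.82 (n = 6) in wild-type no-Cre libraries. Syt2 was the higher gene of the pair in all 23 libraries, by 1.07 to 5.33 times. Sv2c over Sv2b averaged 2.21 ± 0.45 (SD, n = 6) in mutant Cre, 2.68 ± 0.62 (n = 5) in wild-type Cre, 3.17 ± 2.73 (n = 6) in mutant no-Cre and 3.04 ± 1.65 (n = 6) in wild-type no-Cre libraries. The wide no-Cre spread came with low Sv2b, including mutant no-Cre replicate 5, where Sv2b had 0 counts. None of the 8 comparisons of these ratios passed, with adjusted exact permutation p between 0.701 and 0.924. For Syt2 over Syt1 this differs from the counts, where Syt2 rose by 0.93 with Cre in wild type and Syt1 stood at 0.14. The median effective length of Syt1 was 2571 bases in wild-type Cre and 4404 in wild-type no-Cre libraries, and that of Syt2 was 6738 and 6729. The part of these lengths in the ratio was not tested.

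Comparing mutant with wild-type Cre libraries asks how the Gars allele alters RNA on tagged ribosomes. None of the 10 genes was called, beside 0.331% of 12399 genes tested by edgeR (0.234% higher and 0.0968% lower). Vamp2, Sv2c and Unc13a had an unadjusted p under 0.05 in edgeR's test, as did 2113 of the 12399 genes. Vamp2 was 1.33 times as high in mutant Cre as in wild-type Cre libraries (log2 0.41, SE 0.15, edgeR adjusted p = 0.226), and 4 of the 6 mutant libraries were above the highest wild-type library. Sv2c was 0.671 times as high (log2 -0.57, SE 0.21, edgeR adjusted p = 0.221), and Unc13a 0.765 times (log2 -0.39, SE 0.18, edgeR adjusted p = 0.291). The other 7 had log2 fold changes between -0.18 for Syt2 and 0.072 for Agrn. Without title number 18405 the change was 0.49 for Vamp2, -0.38 for Sv2c and -0.23 for Unc13a (edgeR adjusted p = 0.205, 0.371 and 0.57), and the sign turned for 6 of the other 7, all but Syt1. The count over all genes depends on 1 library: without wild-type Cre replicate 2, the wild-type Cre library with the highest oligodendrocyte marker sum (3328 CPM), 1054 genes were called and still 0 of the 10.

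The 3 genes were also compared within title numbers. Within title number 20302, with 2 libraries a genotype, mean log2(CPM + 1) of Vamp2 was 7.23 in mutant Cre and 6.59 in wild-type Cre libraries, a difference of 0.64. Within title number 20401, also with 2 a genotype, the means were 7.05 and 6.39, a difference of 0.66. Sv2c differed by -0.30 and -0.16, and Unc13a by -0.35 and -0.011, within the same 2 numbers. The 3 genes were picked by their p over libraries that include these, so the values are description and no further support. Vamp1 and Snap25 also differed within number 20401, by 0.66 and 0.55, and by -0.069 and -0.11 within 20302. CPM values are scaled over all 23 libraries, so these differences are not set against the fold changes. In number 20302 the genotypes also differed in Xist, at 0.036 and 0.037 CPM in mutant Cre against 16.3 and 18.7 CPM in wild-type Cre libraries, so genotype and sex cannot be told apart in it. The mutant Cre libraries of title number 18405 had 12.6 and 11.5 CPM of Xist, and its mutant no-Cre library 0.638 CPM. Values without that number therefore also rest on another mix of sexes. The Chat level was lower in mutant Cre libraries without passing the test (log2 -0.75, SE 0.28, edgeR adjusted p = 0.22), and the oligodendrocyte markers had a median log2 change of 1.63 with 0 of 8 called. Their part in the members' values was not tested.

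Without Cre, none of the 10 genes was called between the genotypes, beside 0% of 12588 genes tested by edgeR (565 of them at an unadjusted p under 0.05, and 0 by DESeq2 after adjustment). None of the 10 had an unadjusted p under 0.05. Their log2 fold changes ran from -0.54 for Vamp2 (SE 0.27) to 0.18 for Sv2b (SE 0.55). The difference between the genotype effects with and without Cre was called for none of the 10, beside 0.0207% of 14468 genes (0.0138% higher and 0.00691% lower). Vamp2 was the single one of the 10 with an unadjusted p under 0.05 in edgeR's test, as were 1524 of the 14468 genes. Its background level was lower in mutant no-Cre than in wild-type no-Cre libraries while its level with Cre was higher in mutants, neither passing its test.

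The wider machinery gives the setting of these 10 genes. Of 95 other symbols in 6 lists of related genes, 94 matched, and 89 gene IDs passed the filter in the Cre comparisons. In mutants 27 were called higher and 15 lower with Cre, with a median log2 fold change of 0.25, beside 14.1% higher and 19.2% lower over all genes. In wild type 33 were called higher and 23 lower, with a median of 0.51, beside 20% and 25.9% over all genes. Scaled by library totals alone, 45 were called higher and 0 lower in mutants, and 8 and 2 in wild type. Leaving out title number 18405, 33 were called higher and 15 lower in mutants, and of the genes named here the call differed for Syt7, Sypl and Lrp4, whose values without it are given. None was called in the genotype comparison with Cre (90 tested), without Cre (90 tested) or in the difference (92 tested).

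**Figure D4:**
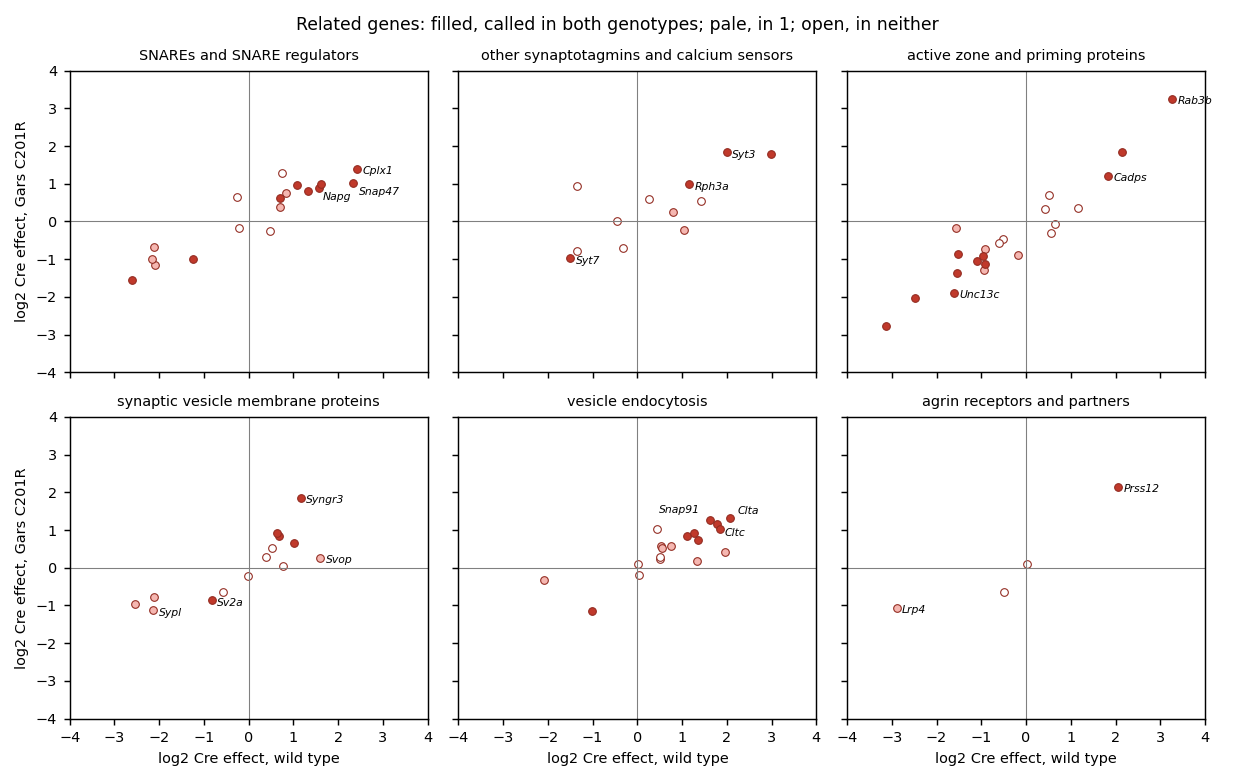
Log2 fold change of Cre over no-Cre in Gars C201R (vertical axis) against wild type (horizontal axis) for the tested genes of 6 related lists, 1 panel each. Each point is a gene ID, filled where edgeR called it in both genotypes; genes named in the text are labelled, from Rab3b at 3.25 and 3.27 down to Unc13c at -1.89 and -1.61 among the active zone genes.

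Of 18 tested SNAREs and SNARE regulators, 7 were called higher and 2 lower in mutants, beside 14.1% and 19.2% of all genes. In wild type 9 were called higher and 5 lower, beside 20% and 25.9%. Cplx1, the complexin that clamps and then aids fusion, averaged 337 ± 124 CPM in mutant Cre and 459 ± 90.8 CPM in wild-type Cre libraries, against 101 ± 17.9 and 81.8 ± 10.0 CPM in mutant and wild-type no-Cre libraries (SD, n = 6, 5, 6 and 6). It rose by 1.39 (edgeR adjusted p = 0.00109) in mutants and by 2.43 (edgeR adjusted p = 2.4e-06) in wild type. Napg, a SNAP adaptor of the disassembly enzyme Nsf, rose by 0.99 in mutants and 1.62 in wild type, and Snap47, a SNAP25 relative, by 1.03 and 2.34.

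Of 12 other synaptotagmins and calcium sensors, 3 were called higher and 1 lower in mutants, and 5 higher and 1 lower in wild type, shares near those over all genes (33.3% and 46% called in either direction). Syt3, a synaptotagmin with high calcium affinity, averaged 63.8 ± 16.6 CPM in mutant Cre and 72.2 ± 16.8 CPM in wild-type Cre libraries, against 14.4 ± 6.67 and 17.2 ± 5.23 CPM in mutant and wild-type no-Cre libraries, and rose by 1.83 and 2.00 in the 2 genotypes (edgeR adjusted p = 0.000292 and 2.55e-05). Rph3a, which binds Rab3 on vesicles, rose by 0.99 in mutants and 1.16 in wild type. Syt7, the sensor of slow release, fell by 0.98 in mutants, and by 1.50 in wild type. In mutants library totals alone gave 0.093, and without title number 18405 the value was -0.84 and the call was lost (edgeR adjusted p = 0.0676).

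The active zone and priming list, where Unc13a belongs by role, had 3 called higher and 10 lower of 22 gene IDs in mutants and again 3 and 10 in wild type, where Pclo has 2 gene IDs. Over all genes 19.2% were called lower in mutants and 25.9% in wild type, and by library totals alone 0 of this list were called lower in mutants. With title number 18405 left out, 4 were called higher and 7 lower there. Rab3b, a vesicle GTPase, averaged 66.5 ± 27.6 CPM in mutant Cre and 94.6 ± 15.9 CPM in wild-type Cre libraries, against 5.37 ± 3.26 and 9.45 ± 6.59 CPM in mutant and wild-type no-Cre libraries, and rose by 3.25 and 3.27 (edgeR adjusted p = 7.29e-05 and 8.29e-06). Cadps, a priming factor of dense-core vesicles, rose by 1.21 in mutants and 1.84 in wild type. Unc13c, the Munc13 paralog best known from cerebellar granule cells, averaged 6.53 ± 2.16 CPM in mutant Cre and 5.64 ± 1.96 CPM in wild-type Cre libraries, against 19.5 ± 3.86 and 16.3 ± 5.48 CPM in mutant and wild-type no-Cre libraries, and fell by 1.89 and 1.61.

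Of 14 vesicle membrane genes, 4 were called higher and 1 lower in mutants, and 5 higher and 4 lower in wild type. Of all genes, 33.3% were called in either direction in mutants, a share near that of this list, and 46% in wild type. Sv2a, the SV2 paralog found at most synapses, fell by 0.86 in mutants (edgeR adjusted p = 0.00872) and by 0.83 in wild type (edgeR adjusted p = 0.0166), while Sv2b and Sv2c rose in both; with library totals alone Sv2a stood at 0.62 in mutants. Its level was 39.8 ± 3.98 CPM in mutant Cre and 36.1 ± 2.804 CPM in wild-type Cre libraries, against 58.2 ± 15.1 and 60.8 ± 21.5 CPM in mutant and wild-type no-Cre libraries (SD, n = 6, 5, 6 and 6). Syngr3, a synaptogyrin of the vesicle, rose by 1.85 in mutants and 1.17 in wild type. Svop, a transporter-like vesicle protein related to SV2, rose by 1.60 in wild type and stood at 0.26 (edgeR adjusted p = 0.603) in mutants, and Sypl, a synaptophysin relative found outside neurons too, fell by 2.13 in wild type and stood at -1.13 (edgeR adjusted p = 0.053) in mutants, where without title number 18405 it was -1.87 and called (edgeR adjusted p = 0.00128).

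Of 19 vesicle endocytosis genes, 9 were called higher and 1 lower in mutants, beside 14.1% and 19.2% of all genes. In wild type 10 were called higher and 2 lower, beside 20% and 25.9%. The clathrin light chain gene Clta rose by 1.33 in mutants and 2.08 in wild type, the heavy chain gene Cltc by 1.16 and 1.78, and Snap91, the neuronal clathrin assembly protein AP180, by 1.27 and 1.61. Of 4 tested agrin receptors and partners, 1 was called higher in each genotype and 1 lower in wild type. These counts are near the shares called in either direction over all genes (33.3% in mutants and 46% in wild type). Prss12, the neurotrypsin gene whose product cuts agrin, averaged 5.14 ± 1.52 CPM in mutant Cre and 6.76 ± 1.41 CPM in wild-type Cre libraries, against 0.818 ± 0.757 and 1.54 ± 0.951 CPM in mutant and wild-type no-Cre libraries, and rose by 2.15 and 2.06. Lrp4, the agrin receptor of muscle, fell by 2.89 in wild type and stood at -1.06 (edgeR adjusted p = 0.0795) in mutants, where library totals alone gave 0.072 and leaving out title number 18405 gave -1.57, a called value (edgeR adjusted p = 0.0275).

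Among 14467 genes, the gene whose mean-centred log2(CPM + 1) profile over the 23 libraries came closest to each of the 10 was found by the smallest root mean square difference. These profiles share library depth and the 4 groups, so they are given as description. Vamp1 was closest to Syt3 (difference 0.302, where the profile of Vamp1 itself had a root mean square of 1.26), Snap25 to the neuronal reticulon gene Rtn1 (0.262) and Syt4 to the glycine receptor subunit gene Glrb (0.283). Vamp2 was closest to Dpysl2 (0.278), Syt2 to Pafah1b1 (0.225), Syt1 to Ythdf3 (0.249), Sv2b to Cdr2l (0.413), Sv2c to Fstl1 (0.283), Unc13a to Eea1 (0.291) and Agrn to Nmur2 (0.298). Syt1, Unc13a and Agrn varied little over the libraries (root mean square 0.428, 0.471 and 0.453), and Vamp2 not much more (0.53), so closeness says little for these.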

How the data were processed

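RNA in anti-HA precipitates from spinal cords of mice aged 2 weeks, with Cre (tagged ribosomes) or without it (background), was sequenced in 23 libraries of 4 groups, taken from the labels. Whether each library is its own animal is not in the labels, and the p-values cover library-to-library spread, which may be technical. Replicate numbers follow the order of deposit, and the leading number of a title, whose meaning is not stated, was used only as a possible batch.

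Per the submitters' processing notes the tools were Bowtie2 2.2.0 and RSEM 1.2.12. Their genome build is not given in the sources used here, nor the annotation. Each deposited table holds expected counts per gene, not normalized for depth, and TPM (transcript abundance), scaled by the authors to length and depth, beside gene length, effective length and FPKM. The deposited FPKM was not used here, and the deposited TPM only as an alternative for the ratios. GENCODE M21 (GRCm38) held 37607 of the 38924 gene IDs, those of all 10 genes among them, and positions were taken from it.

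The deposited expected counts, made whole by rounding, went into edgeR 4.0.16 under R 4.3.3. Genes passed filterByExpr (min.count 10, min.total.count 15), scaling was by TMM, and calls came from the quasi-likelihood test at a Benjamini-Hochberg adjusted p under 0.05, with only the groups compared in a fit and all 23 libraries for the difference. The standard error is the log2 fold change over the root of F. CPM uses TMM over 23 libraries, and each fold change uses TMM over the libraries of its own fit, so the 2 need not match. Ribosomal RNA-like genes are Gm26924, Gm15662, Lars2, mt-Rnr1 and mt-Rnr2. Ratios used counts plus 0.5 per effective length and exact permutation tests. The fit was tested on simulated counts. Alternatives were RLE factors, library totals, those 5 genes left out, no filter, DESeq2 1.42.0, a block for title number, no libraries of title number 18405, each library left out, and for ratios a pseudocount of 2 counts and TPM plus 0.1. Over 55 replicate pairs, chi-square divided by its degrees of freedom was at least 8.53, so no pair agreed within sampling noise.

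The 10 genes, the 6 related lists and the marker lists were chosen with earlier results of these data known. Named beside the 10 were Chat, Gars and Rpl22, up to 2 called genes of the smallest p per list and comparison, and the gene most alike each of the 10. Marker genes at 0 and Xist fall outside this rule, having been picked with their values in view. Rpl22, whose count includes the tagged and untagged forms and does not check the labels, averaged 12.4 ± 2.16 CPM in mutant Cre and 10.9 ± 2.11 CPM in wild-type Cre libraries, against 14.9 ± 2.33 and 12.7 ± 4.53 CPM in mutant and wild-type no-Cre libraries (SD, n = 6, 5, 6 and 6).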

Additional observations from a re-analysis of the deposited data

Results flagged for a closer look

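A library was set apart where its gap to the nearest library of its group, divided by the group's range, exceeded Dixon's 95% critical value for the group's size. Of 52 groups of values examined (40 of them for single genes), 8 held such a library, and chance alone gives about 1 in 20. All 8 were values of no-Cre libraries.

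In mutant no-Cre libraries, replicate 4 had the lowest Syt1 level at 11.6 CPM, replicate 1 the highest Snap25 level at 486 CPM, and replicate 5 the lowest Vamp1 level at 28.1 CPM. Replicate 5 also had a log2 ratio of Sv2c over Sv2b of 8.50, with 0 counts for Sv2b, and it had the fewest counts outside ribosomal RNA-like genes of all 23 libraries (594383). In wild-type no-Cre libraries, replicate 1 had the lowest Snap25 level at 230 CPM and the lowest log2 ratio of Vamp1 over Vamp2 at -1.16. Replicate 2 of that group had the lowest Sv2b level at 1.48 CPM and the lowest Unc13a level at 8.18 CPM.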

How the results depend on the processing

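Beside Syt4, Snap25, Vamp1, Vamp2 and Sv2b, whose Cre effects kept their direction and their call in mutants under every alternative run, several values depended on the setting, and the cause was not tested except where fewer or more genes tested changes the count by construction. Of the genes called for the Cre effect there were 8175 in mutants with no filter and 6841 by DESeq2, and 906 in wild type by library totals, where 2 of the 10 were called. The genotype effect with Cre called 17 genes by library totals, 89 with no filter, 381 by DESeq2 and 19 with the title-number block, and without Cre 31 with no filter. The difference of the genotype effects called 1, 9 and 46 genes by library totals, with no filter and by DESeq2. None of these genotype counts held any of the 10. Library totals moved the median log2 value over all genes to 0.79 for the genotype effect with Cre, -0.35 without Cre and 1.18 for the difference (0.056, -0.023 and 0.12 with TMM).

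Direction changed for small log2 values. For Unc13a the Cre effect in mutants stood at 0.085 with RLE factors, 1.28 by library totals, 0.12 without ribosomal RNA-like genes, 0.11 with no filter, 0.10 by DESeq2 and 0.25 without title number 18405. Agrn stood at 0.42 in mutants by library totals. Vamp2 in wild type stood at 0.33 by library totals, 0.082 with no filter and 0.19 with the block. For the genotype effect with Cre, library totals gave 0.63 for Syt2, 0.74 for Syt4, 0.53 for Snap25, 0.67 for Vamp1, 0.56 for Sv2b, 0.38 for Sv2c and 0.42 for Unc13a. The block gave 0.017 for Syt2, 0.11 for Syt4, 0.066 for Snap25, 0.16 for Vamp1, 0.087 for Sv2b and -0.16 for Agrn. Leaving out title number 18405 gave 0.038 for Syt2, 0.099 for Syt4, 0.054 for Snap25, 0.18 for Vamp1, 0.11 for Sv2b and -0.17 for Agrn. Without Cre, Sv2c stood at 0.023 with RLE factors, 0.015 by DESeq2 and 0.0996 without title number 18405, where Syt2 stood at 0.021. The difference of the genotype effects was -0.039 for Syt4 and -0.028 for Agrn with RLE factors, and -0.038 and -0.024 by DESeq2. By library totals it was 0.99 for Syt2, 1.08 for Snap25, 0.50 for Sv2b, 0.81 for Sv2c and 1.05 for Unc13a. It was 0.0053 for Snap25 with no filter and -0.013 for Syt1 with the block. Without title number 18405 it was 0.062 for Syt2, 0.13 for Snap25, 0.011 for Unc13a and -0.12 for Agrn. Between genotypes without Cre, the log2 ratio of Sv2c over Sv2b was -0.18 with a pseudocount of 2 counts and -0.41 from TPM, and that of Syt2 over Syt1 was 0.065 without title number 18405.

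Leaving out each library in turn gave 10 to 1054 genes called for the genotype effect with Cre (10 without wild-type Cre replicate 3, 1054 without wild-type Cre replicate 2) and 1 to 8 for the difference. Log2 values then ran, for the Cre effect, from -0.11 to 0.25 for Unc13a in mutants, and in wild type from -0.038 to 0.26 for Syt1 and -0.14 to 0.14 for Vamp2. For the genotype effect with Cre they ran from -0.022 to 0.14 for Syt1, -0.20 to 0.057 for Vamp1, -0.26 to 0.027 for Sv2b and -0.089 to 0.15 for Agrn. Without Cre they ran from -0.26 to 0.061 for Syt1, -0.16 to 0.021 for Syt2, -0.037 to 0.41 for Sv2b, -0.25 to 0.18 for Sv2c and -0.19 to 0.11 for Agrn. The difference ran from -0.26 to 0.019 for Syt2, -0.10 to 0.17 for Syt4, -0.24 to 0.027 for Snap25, -0.052 to 0.25 for Vamp1 and -0.067 to 0.25 for Agrn. The log2 ratio of Sv2c over Sv2b ran from -1.35 to 0.11 for the Cre effect in mutants, -0.65 to 0.24 in wild type and -0.94 to 0.72 between genotypes without Cre, and that of Syt2 over Syt1 from -0.19 to 0.26 for the Cre effect in wild type and -0.28 to 0.26 between genotypes without Cre.

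No paired analysis was possible because the replicate numbers follow the order of deposit and mark no shared origin. A block for title number, whose meaning is not stated, was run as a possible batch, but not for the Cre effect in mutants or the genotype effect without Cre, where the groups share a single title number. Depth limits low values, such as the 0 counts of Sv2b in mutant no-Cre replicate 5, the library with the fewest counts outside ribosomal RNA-like genes.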

Other observations

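The authors' effective length, the length over which RSEM spreads a gene's reads, differed between groups for some of the 10 genes. For Sv2c it was 2431 to 3406 bases in mutant Cre and 2619 to 2971 in wild-type Cre libraries, against 3480 to 4110 in mutant no-Cre and 2323 to 4108 in wild-type no-Cre libraries, with medians of 3015, 2713, 4103 and 4070 in that order of groups. For Syt1 the medians were 3692 and 2571 bases in mutant and wild-type Cre libraries, against 4500 and 4404 in mutant and wild-type no-Cre libraries, and for Snap25 they were 1242 and 1083 against 1409 and 1504. Agrn ran from 2008 to 7102 bases over all libraries, while Syt2 stayed within 6726 to 6740 bases and Syt4 within 3748 to 3762. These lengths enter the per-length levels and the paralog ratios and not the CPM values. Counts per transcript were not analysed here.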
